A study of Mus musculus with 15 samples.

Results

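The 10 genes described here, *Cd68*, *Csf1r*, *Mrc1*, *Cd163*, *Itgam*, *Cd14*, *Lyz2*, *Fcgr3*, *Csf3r* and *Cxcr2*, are used as markers of macrophages and neutrophils. They were taken by exact gene symbol from the expression files, and all 10 were found among the 21110 genes listed. 4 of them (*Cd68*, *Csf1r*, *Mrc1* and *Cd163*) are mainly macrophage genes, 4 (*Itgam*, *Cd14*, *Lyz2* and *Fcgr3*) are shared by macrophages, monocytes and neutrophils, and 2 (*Csf3r* and *Cxcr2*) are mainly neutrophil genes in blood and inflamed tissue.

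Macrophages live in the dermis of healthy skin, take up debris and microbes, and depend for survival on signals through the receptor CSF1R, whose ligands are CSF1 and IL-34. Neutrophils are short-lived blood cells that mature under G-CSF, the ligand of CSF3R, and enter tissue along gradients of CXC chemokines read by CXCR2. Mature neutrophils hold few transcripts per cell, and many granule genes are transcribed in the bone marrow before the cells leave it.

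RNA came from ears of C57BL/6 mice, 1 library per mouse and 15 mice in all. The groups were wild type at 2 weeks (n = 4), *Socs3* cKO at 2 weeks (n = 4), wild type at 10 weeks (n = 3) and *Socs3* cKO at 10 weeks (n = 4). In the cKO mice *Socs3*, an inhibitor of cytokine signalling, is deleted in cells that express keratin 5, which are basal keratinocytes and not phagocytes, and no further allele or treatment is given for either genotype. The labels name both keratinocytes and the ear as the source, and markers of other tissues were present: the 6 fibroblast, 6 endothelial and 6 skeletal muscle genes checked were all expressed well enough to be tested, so the values describe ear tissue. In such bulk RNA, fewer cells of a type and less RNA per cell cannot be told apart. Values are FPKM, reads scaled to transcript length and to the mapped reads of the library, which can be compared between genes.

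*Socs3* itself was not uniformly lower in the mice labelled cKO. Wild type mice had 9.71 to 10.3 FPKM at 2 weeks, where cKO mice had 1.25 to 12.6, and 2.02 to 4.81 FPKM at 10 weeks, where cKO mice had 29.8 to 47.7. A gene-level value cannot show a deleted segment by itself, so each direction given below rests on the labels. The depth, estimated from the smallest steps in the values, was 11800000 to 16900000 mapped reads per mouse. The sample titles carry codes whose meaning is not given and whose ranges do not overlap between groups. A batch, if there was one, therefore cannot be told apart from group. Libraries also differed in how they covered long genes: the median deviation of 3968 genes with transcripts over 4000 bases, less that of 2297 genes under 1500 bases, was 0.47 to 0.70 on the log2 scale in the wild type at 2 weeks and -1.03 to -0.24 in the wild type at 10 weeks. In cKO it was -0.98, 0.49, -0.39 and -0.15 at 2 weeks and 0.32, 0.37, 0.39 and -0.40 at 10 weeks. Results were therefore also computed with the trend in transcript length and GC content removed from each library, and the values this gave for the 10 genes are set beside those it moved most.

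By level, *Lyz2*, which encodes the lysozyme of phagocytes, stood far above the other 9 genes in every group, at a mean of 145.9 FPKM in the wild type at 2 weeks. *Csf1r* (27.5), *Cd68* (23.4), *Fcgr3* (22.3), *Mrc1* (16.7) and *Cd163* (9.58 FPKM) followed, then *Itgam* (3.53) and *Cd14* (3.32), and last *Cxcr2* (1.04) and *Csf3r* (0.655 FPKM). In this order *Cd68* overlapped *Fcgr3*, and *Itgam* overlapped *Cd14*, between mice of the group, while the other neighbours did not overlap. The order in other groups differed from this one. In cKO at 10 weeks *Cd14* ranked above *Cd163* and *Itgam*, with a mean of 26.9 FPKM against 12.6 and 4.37. It ranked above *Itgam* in cKO at 2 weeks too (5.605 against 2.024 FPKM). In the wild type at 10 weeks *Cxcr2* (5.70 FPKM) ranked above *Cd14* (5.29) and *Cd163* (4.94), although these 3 overlapped. In that group *Cd68* (25.4 FPKM) ranked above *Fcgr3* (22.6) and *Csf1r* (22.1), with overlap between neighbours. The estimated reads behind a value were at least 2115 for *Lyz2* but only 11 to 155 for *Csf3r* and 37 to 258 for *Cxcr2*, so counting error weighs more on the neutrophil receptors.

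**Figure D1:**
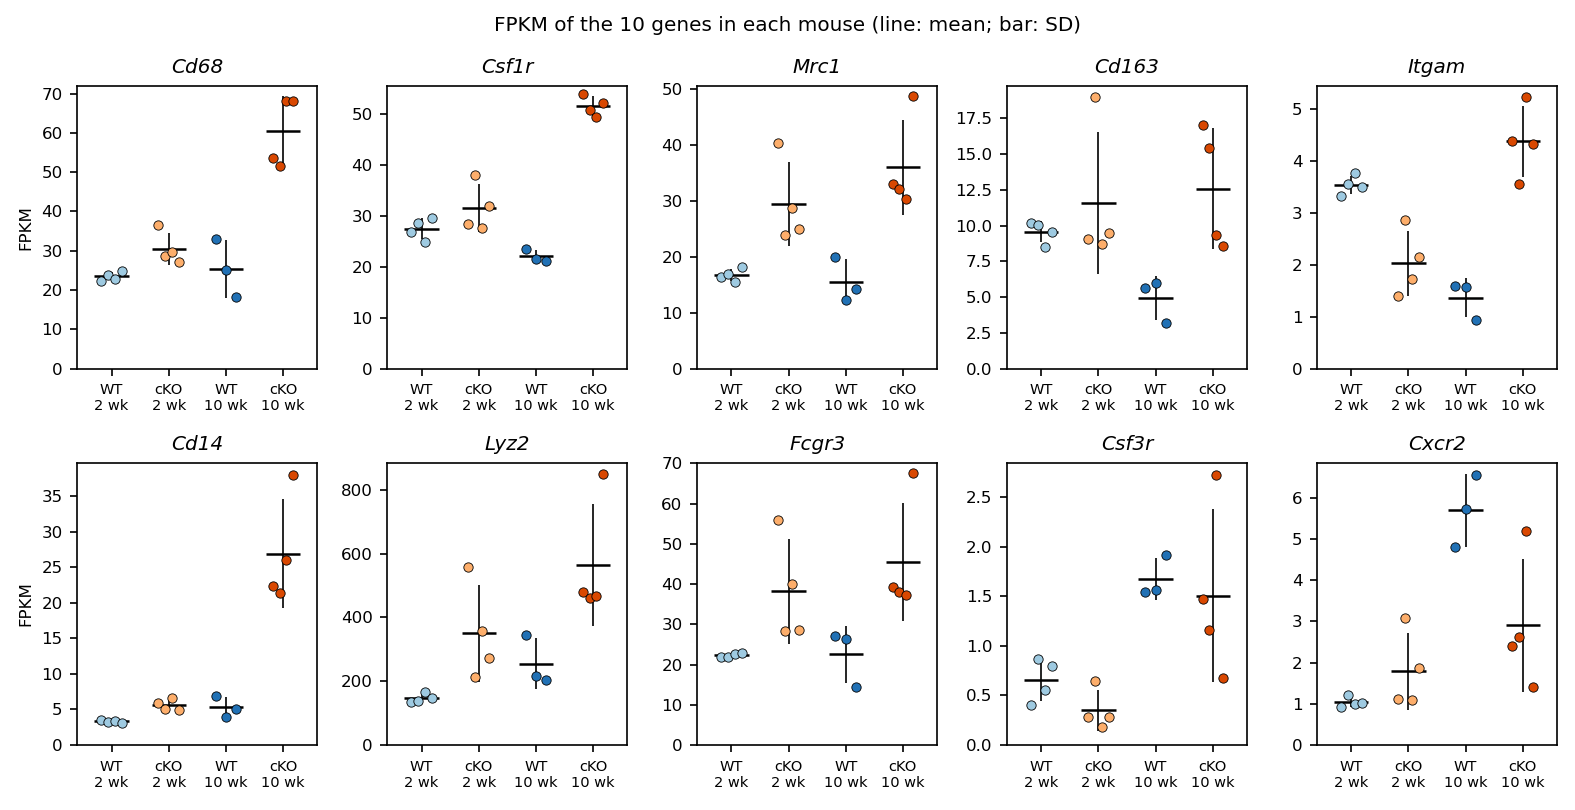
FPKM of the 10 genes, 1 panel each with a linear axis from 0 and 1 point per mouse, for wild type (WT) and *Socs3* cKO at 2 and 10 weeks (wk); the line is the group mean and the bar its SD. In 8 panels every cKO mouse at 10 weeks lies above every wild type mouse of that age; *Csf3r* and *Cxcr2* overlap.

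At 10 weeks, 5 of the 8 macrophage and shared phagocyte genes were up-regulated in the mice labelled *Socs3* cKO, and neither neutrophil receptor gene was. 5 of the 10 genes passed the thresholds for a DEG (differentially expressed gene), which are an adjusted p below 0.01 and a log2(FC) of at least 1 in size in limma on log2(FPKM + 0.1). All 5 were up-regulated, *Cd14*, *Itgam*, *Cd68*, *Csf1r* and *Mrc1*, against 14.9% of all 13105 genes tested that were DEGs in either direction and 12.5% that were up-regulated. At an adjusted p below 0.05 with no fold threshold, 9 of the 10 passed, beside 37.6% of all genes. In 8 of the 10 genes every cKO mouse lay above every wild type mouse, against 31.2% of all genes tested. The median log2(FC) of the 10 was 1.22 beside 0.31 for all genes tested, so that the typical gene also shifted upward on this scale. Median-of-ratios scaling, which brought the median of all genes to 0.05, left 3 of the 5 as DEGs (*Cd14*, *Cd68* and *Itgam*), with *Csf1r* and *Mrc1* each at 0.96.

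*Cd14*, the co-receptor that hands lipopolysaccharide to TLR4, had the largest change of the 10. It stood at 6.90, 3.94 and 5.03 FPKM in the wild type and at 22.3, 21.4, 25.99 and 38.0 FPKM in cKO at 10 weeks. The groups lay far apart, with the lowest cKO mouse above 3 times the highest wild type mouse. It had a log2(FC) of 2.32 (SE 0.26, adjusted p = 0.000344), and *Cd14* remained a DEG under all 17 alternatives tried, with log2(FC) values from 1.97 to 2.53.

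*Itgam* encodes the alpha chain of the integrin Mac-1, which binds ICAM-1, fibrinogen and the complement fragment iC3b (chromosome 7 of mm9, 135206154 to 135271674, 31 exons). Wild type mice had 1.59, 1.57 and 0.93 FPKM, and cKO mice 4.37, 3.55, 5.22 and 4.32 FPKM. Every cKO mouse exceeded every wild type mouse more than 2-fold. The log2(FC) was 1.64 (SE 0.26, adjusted p = 0.00187), and with the length and GC trend removed it was 0.94 (adjusted p = 0.0128), no longer a DEG.

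*Cd68* encodes a lysosomal protein of macrophages (chromosome 11, 69477715 to 69479655, 6 exons). It stood at 32.9, 25.2 and 18.2 FPKM in the wild type and at 53.6, 51.6, 68.1 and 68.3 FPKM in cKO. Its log2(FC) of 1.27 (SE 0.22, adjusted p = 0.00272) made it a DEG. *Cd68* has a short transcript of 1230 bases, and removal of the length and GC trend moved it little, to 1.35 (adjusted p = 0.00106). The wild type mice spread widely around their mean, and without wild type replicate 3, the lowest of them, *Cd68* was no longer a DEG.

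*Csf1r*, the receptor on which macrophages depend, was the most even of the 10 genes within both 10-week groups, with SDs of 0.0847 (wild type) and 0.0531 (cKO) on the log2 scale. It stood at 23.6, 21.6 and 21.1 FPKM in the wild type and at 53.9, 50.8, 49.5 and 52.3 FPKM in cKO at 10 weeks. This gave a log2(FC) of 1.22 (SE 0.14, adjusted p = 0.000438). With the length and GC trend removed it was 0.65 (adjusted p = 0.0256). *Hmgxb3* overlaps *Csf1r* on the opposite strand over 871 exonic bases, and the library kit does not keep the strand, so reads of this stretch cannot be told apart. *Hmgxb3* was at 2.87 to 3.99 FPKM in the wild type and 3.42 to 4.96 FPKM in cKO at 10 weeks.

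*Mrc1* encodes the mannose receptor, a mark of resident dermal macrophages that also occurs on endothelium (chromosome 2, 14151041 to 14253684, 30 exons). Wild type mice had 20.04, 12.2 and 14.3 FPKM, and cKO mice 33.0, 32.1, 30.4 and 48.7 FPKM, with no overlap. The log2(FC) was 1.22 (SE 0.23, adjusted p = 0.00384), and the call was the least stable of the 5, lost in 5 of 17 alternatives. Its transcript is the longest of the group at 5352 bases, and with the length and GC trend removed the log2(FC) was 0.40 (adjusted p = 0.303).

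3 further genes did not overlap between the groups at 10 weeks but missed the threshold. *Cd163*, the scavenger receptor for haemoglobin bound to haptoglobin, stood at 3.20 to 5.97 FPKM in the wild type and 8.56 to 17.0 in cKO, with a log2(FC) of 1.32 (SE 0.31, adjusted p = 0.0101), and of 0.61 (adjusted p = 0.0742) with the trend removed. *Lyz2* stood at 202.7 to 346.2 FPKM in the wild type and 459.5 to 849.2 in cKO, with a log2(FC) of 1.14 (SE 0.29, adjusted p = 0.0136). *Fcgr3*, a low-affinity receptor for IgG, stood at 14.4 to 27.0 and 37.3 to 67.6 FPKM, with a log2(FC) of 1.01 (SE 0.28, adjusted p = 0.0202). Reads of *Lyz2* and *Fcgr3* can be shared with near copies, since 35.1% and 22.9% of the 32-base words in their exons occur elsewhere in the genome. For the neutrophil receptor genes *Csf3r* and *Cxcr2* these shares were 28.3% and 15.8%, so part of their reads may be shared too. The neighbouring lysozyme gene *Lyz1* was at 58.7 to 115.6 FPKM in the wild type and 90.8 to 180.9 FPKM in cKO at 10 weeks.

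The neutrophil receptors did not share this pattern. *Cxcr2* stood at 4.80, 5.74 and 6.55 FPKM in the wild type and at 2.39, 2.63, 5.20 and 1.40 FPKM in cKO at 10 weeks, so that cKO replicate 3 lay among the wild type mice and the other 3 were lower than each of them. The log2(FC) was -1.08 (SE 0.37, adjusted p = 0.0450), which missed the threshold, and without cKO replicate 3 *Cxcr2* was a down-regulated DEG. With the trend removed it was -1.63 (adjusted p = 0.0103). *Csf3r* stood at 1.54, 1.56 and 1.91 FPKM in the wild type and at 1.47, 1.16, 2.72 and 0.676 FPKM in cKO, again highest in cKO replicate 3. Its log2(FC) was -0.29 (SE 0.40, adjusted p = 0.588), and -0.82 (adjusted p = 0.0981) with the trend removed. Without cKO replicate 4, and with the replicate number as a block, which also leaves that mouse out of the estimate, the difference was 0.01.

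**Figure D2:**
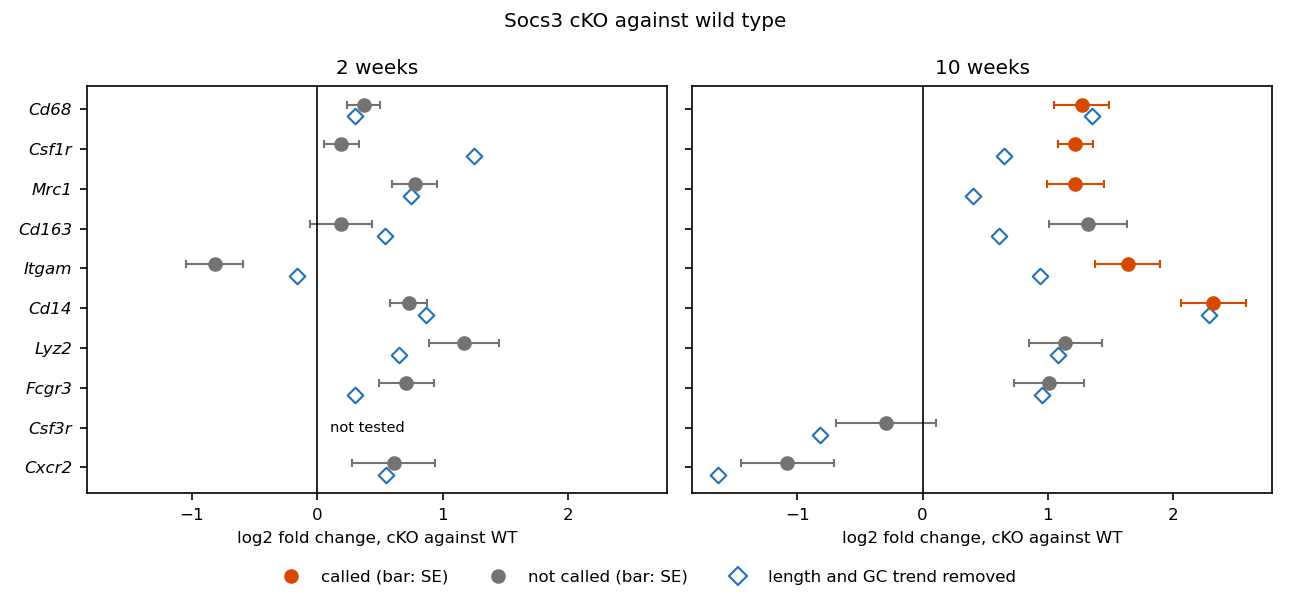
log2(FC) of the 10 genes between mice labelled *Socs3* cKO and wild type at 2 weeks (left) and 10 weeks (right); filled points with SE bars are the reported values, coloured where the gene was a DEG, and open diamonds are the values with the length and GC trend removed. At 10 weeks the diamonds of *Cd14*, *Cd68*, *Lyz2* and *Fcgr3* stay close to the points, and those of *Csf1r*, *Mrc1*, *Cd163* and *Itgam* lie between 0.40 and 0.94.

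The 4 genes that moved least on removal of the trend have transcripts of 1230 to 1572 bases, and the 4 that moved most have transcripts of 4492 to 5352 bases. Under that alternative 3 genes were DEGs at 10 weeks, *Cd14*, *Cd68* and *Lyz2*. Whether RNA quality lies behind the length trend was not tested.

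Of the genes that were up-regulated at 10 weeks, *Cd68*, *Mrc1* and *Itgam* have an entry in the RefSeq promoter table (assembly GRCm38.p6), and their 250 bases before the start site are shown because these genes were up-regulated together. Capitals mark GAGGAA or its reverse complement TTCCTC, the core of the site bound by PU.1, a transcription factor of macrophages and neutrophils. Each line runs 5′ to 3′ on the strand of the gene, and the start site follows the last base.
Cd68: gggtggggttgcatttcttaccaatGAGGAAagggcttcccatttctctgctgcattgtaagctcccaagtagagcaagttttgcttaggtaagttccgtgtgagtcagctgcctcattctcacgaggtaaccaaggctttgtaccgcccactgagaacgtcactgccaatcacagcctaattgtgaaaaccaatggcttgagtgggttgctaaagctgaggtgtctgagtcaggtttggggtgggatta
Mrc1: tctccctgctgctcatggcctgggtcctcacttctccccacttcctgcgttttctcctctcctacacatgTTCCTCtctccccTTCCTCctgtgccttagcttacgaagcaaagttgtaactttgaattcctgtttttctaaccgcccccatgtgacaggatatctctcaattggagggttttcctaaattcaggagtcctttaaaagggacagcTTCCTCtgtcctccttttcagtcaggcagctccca
Itgam: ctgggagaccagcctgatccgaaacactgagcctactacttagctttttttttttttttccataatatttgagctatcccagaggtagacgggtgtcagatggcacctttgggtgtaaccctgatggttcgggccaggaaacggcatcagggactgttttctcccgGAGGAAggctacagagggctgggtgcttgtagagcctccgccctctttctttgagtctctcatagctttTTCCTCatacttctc
The *Cd68* promoter lies at chr11:69666171-69666420 on the minus strand, that of *Mrc1* at chr2:14229164-14229413 and that of *Itgam* at chr7:128062390-128062639, both on the plus strand. *Cd68* holds 1 match starting 225 bases before the start site, *Mrc1* holds 3, at 180, 167 and 35 bases, and *Itgam* holds 2, at 84 and 15 bases. Of the 8 genes with an entry, 6 held the motif on either strand, *Cd163* and *Lyz2* being those that did not, against 23.3% of all 32851 promoters of this length. *Csf3r* and *Cxcr2*, which were not up-regulated, hold it too, at 86 and 81 bases. A match of letters is a description and not a bound site. *Sfpi1*, the gene of PU.1 and named here for this motif after its values were seen, had a log2(FC) of 0.92 at 10 weeks (SE 0.17, adjusted p = 0.00385), under the fold threshold.

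At 2 weeks no gene of the group was a DEG, although 6 of the 9 tested moved at an adjusted p below 0.05. The DEG count of 0 of 9 in limma stands beside 14.4% of 13524 genes tested, and the count of 6 beside 47.9% of all genes. An unadjusted p below 0.05 was also met by these 6, of which 5 were higher in every mouse labelled cKO than in any wild type mouse (22.9% of all genes) and *Itgam* was lower in every one (33.2%). The median log2(FC) was 0.61, beside -0.21 for all genes tested. *Csf3r*, at 0.404, 0.868, 0.551 and 0.798 FPKM in the wild type and 0.279, 0.648, 0.185 and 0.284 FPKM in cKO, fell under the expression filter (FPKM of at least 1 in at least 3 mice), and the exact permutation test gave p = 0.0857.

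*Cd14* stood at 3.52, 3.26, 3.36 and 3.15 FPKM in the wild type and at 5.86, 5.09, 6.58 and 4.88 FPKM in cKO at 2 weeks. The groups did not overlap. The log2(FC) of 0.73 (SE 0.15, adjusted p = 0.00803) passed the p threshold but not the fold threshold.

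*Lyz2* had a log2(FC) of 1.17 at 2 weeks (SE 0.28, adjusted p = 0.0120), and of 0.65 (adjusted p = 0.0125) with the length and GC trend removed. It stood at 133.5 to 167.4 FPKM in the wild type and at 557.6, 211.6, 356.4 and 273.1 FPKM in cKO. Replicates 1 and 2 of cKO lay furthest apart in this gene and also in the length trend given above. Without cKO replicate 2, *Lyz2* was a DEG. *Lyz1* was a DEG at this age, with a log2(FC) of 1.76 (SE 0.28, adjusted p = 0.00254). Its value may itself hold reads of *Lyz2*, so it cannot show separately that both genes were higher.

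*Mrc1*, *Fcgr3* and *Cd68* were likewise above the wild type in every cKO mouse at 2 weeks. *Mrc1* stood at 15.5 to 18.1 and 23.9 to 40.4 FPKM, with a log2(FC) of 0.78 (SE 0.18, adjusted p = 0.0110). *Fcgr3* stood at 21.9 to 23.0 and 28.3 to 55.9 FPKM (0.71, SE 0.22, adjusted p = 0.0292), and with the trend removed its log2(FC) was 0.30 (adjusted p = 0.113). *Cd68* stood at 22.4 to 24.7 and 27.3 to 36.5 FPKM (0.37, SE 0.13, adjusted p = 0.0443). None of the 3 reached the DEG thresholds in the alternatives tried.

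*Itgam* went the other way at 2 weeks. It stood at 3.33, 3.56, 3.75 and 3.48 FPKM in the wild type and at 1.39, 2.85, 1.72 and 2.14 FPKM in cKO, where all 4 mice lay below the wild type. The log2(FC) was -0.82 (SE 0.23, adjusted p = 0.0200). With the length and GC trend removed it was -0.16 (adjusted p = 0.339).

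*Csf1r* and *Cd163* overlapped between the groups at 2 weeks, with log2(FC) values of 0.19 (adjusted p = 0.286) and 0.19 (adjusted p = 0.536). *Csf1r* stood at 24.9 to 29.7 FPKM in the wild type and 27.7 to 38.0 in cKO. The value of *Csf1r* depended on the treatment of length: it was 1.25 (adjusted p = 0.00497) with the trend removed. *Cd163* was highest in cKO replicate 2, at 19.0 FPKM against 8.71 to 9.50 in the other 3 cKO mice and 8.51 to 10.2 in the wild type, and without that mouse its log2(FC) was -0.07. *Cxcr2* was at 0.925 to 1.21 FPKM in the wild type and 1.08 to 3.07 in cKO (log2(FC) 0.61, adjusted p = 0.143).

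The effect of the genotype differed between the ages for *Itgam*, *Cd14* and *Csf1r*. The difference in log2(FC), 10 weeks less 2 weeks, was 2.46 for *Itgam* (SE 0.34, adjusted p = 0.000183), 1.59 for *Cd14* (SE 0.30, adjusted p = 0.00140) and 1.04 for *Csf1r* (SE 0.19, adjusted p = 0.00102) in limma on all 4 groups. These 3 of 10 genes stand beside 25.6% of 13937 genes tested in either direction and 18.5% in this one, so the share is near the background. At an adjusted p below 0.05 the counts were 6 of 10 and 47.0%. The median over the 10 was 0.71 beside 0.55 for all genes. *Itgam* kept this call in all 24 alternatives, with values from 1.13 to 2.63. *Cd14* lost it under median-of-ratios scaling (1.13) and quantile normalization (0.77). *Csf1r* changed its sign, to -0.56 (adjusted p = 0.222), with the length and GC trend removed. The difference for *Cxcr2* was -1.70 (adjusted p = 0.0186) and passed the threshold under both scaling alternatives and with the trend removed.

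In the mice labelled cKO, 3 of the 10 genes were up-regulated from 2 to 10 weeks, *Cd14* by a log2(FC) of 2.21, *Csf3r* by 1.78 and *Itgam* by 1.11, against 3.54% of all genes tested in either direction and 2.01% up-regulated. In 5 of 10 genes every 10-week mouse lay above every 2-week mouse (7.71% of all genes), and 5 of 10 had an adjusted p below 0.05 (10.1%). These comparisons share their mice with those between genotypes. *Cd14* kept the call in all 24 alternatives. *Csf3r*, which was under 1 FPKM in every 2-week cKO mouse and at 1 FPKM or more in 3 of the 4 at 10 weeks, lost it in 16 of 24, and *Itgam* lost it in 15. Since *Csf3r* was under 1 FPKM in all 2-week mice, it passed the expression filter only through mice of 10 weeks, and its call supports nothing about the group. It is nevertheless counted among the 3 up-regulated genes and in both counts of 5 given above. All 10 genes had a log2(FC) above 0, with a median of 0.73 beside 0.11 for all genes, and *Cd68* (0.98, adjusted p = 0.00289) and *Csf1r* (0.72, adjusted p = 0.00250) passed the p threshold alone.

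In the wild type, 2 of the 10 genes changed from 2 to 10 weeks, 1 upward and 1 downward, against 25.5% of all genes tested, 6.18% upward and 19.4% downward. At an adjusted p below 0.05 there were 5 of 10, beside 50.8%, and 4 genes were higher and 3 lower without overlap, beside 17.3% and 49.5%. *Cxcr2* was up-regulated by a log2(FC) of 2.34 (SE 0.39, adjusted p = 0.000322), from 0.925, 1.21, 0.995 and 1.02 to 4.80, 5.74 and 6.55 FPKM, and kept the call in all 24 alternatives. *Itgam* was down-regulated by 1.35 on the log2 scale (adjusted p = 0.000671), and was no DEG with the length and GC trend removed, where it was -0.29. *Csf3r* stood at 0.404 to 0.868 FPKM at 2 weeks and 1.54 to 1.91 at 10 weeks, without overlap, with a log2(FC) of 1.27 (SE 0.41, adjusted p = 0.0200). It missed the threshold, and of the 24 alternatives it was a DEG in 3, both scaling alternatives and removal of the trend, with values of 1.63 to 2.30. As in cKO, *Csf3r* passed the expression filter only through mice of 10 weeks, so these values support nothing about the group. It is counted among the 4 genes higher without overlap and the 5 with an adjusted p below 0.05.

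Haemoglobin transcripts moved with the neutrophil receptors in part of the groups. For *Hba-a1*, the alpha globin gene of red cells, wild type mice had 168.4 to 193.0 FPKM at 2 weeks and 1958 to 2885 at 10 weeks, and cKO mice had 1024 to 2767 and then 255.4 to 791.2. The wild type at 10 weeks was thus highest in *Cxcr2* and among the highest in *Hba-a1*, while cKO at 2 weeks was high in *Hba-a1* and low in *Csf3r*. All 4 erythroid genes found were up-regulated in cKO at 2 weeks and 3 of 4 were down-regulated at 10 weeks, with sums from 457.6 to 531.1 FPKM (wild type) against 2704 to 7432 (cKO) at the younger age, and 4683 to 6915 against 673.4 to 2110 at the older. The part of blood content in the values of *Csf3r* and *Cxcr2* was not tested.

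**Figure D3:**
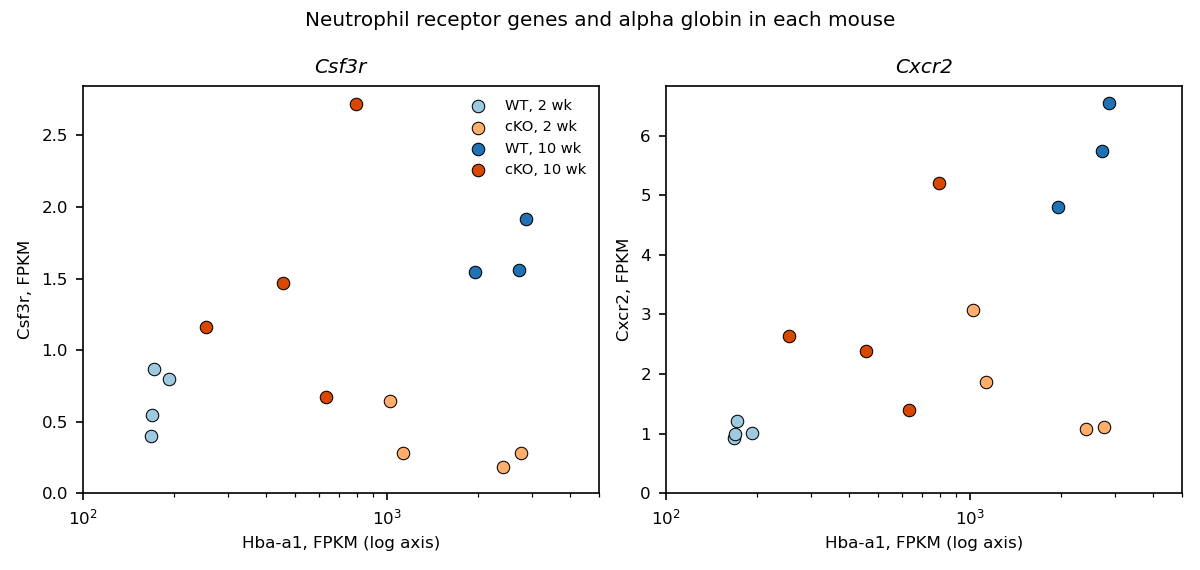
FPKM of *Csf3r* (left) and *Cxcr2* (right), linear axes, against FPKM of *Hba-a1* on a log axis, 1 point per mouse coloured by group. The 3 wild type mice at 10 weeks lie at the upper right of the *Cxcr2* panel, and the 4 cKO mice at 2 weeks lie at high *Hba-a1* with *Csf3r* at 0.185 to 0.648.

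Most other neutrophil genes were low in every group, and a few were high. Of 23 neutrophil genes listed for this check, 22 were in the files, and 10 of these stayed under 1 FPKM in every one of the 15 mice. Among them were the granule genes *Elane*, *Ltf* and *Ngp* and the receptors *Cxcr1* and *Fpr1*, which reached at most 0.339 FPKM. *Mpo* reached 2.12 and *Camp* 2.18 FPKM in single mice, while 6 of the 22 reached 10 FPKM in some mouse, among them *Stfa1* (593.5 FPKM) and *Stfa3* (427.6 FPKM). At 10 weeks none of the 9 tested was a DEG in limma, 3 had an unadjusted p below 0.05, and the 2 of highest mean level, *Stfa3* and *S100a8*, had log2(FC) values of 2.37 (adjusted p = 0.130) and 1.39 (adjusted p = 0.445). The median log2(FC) of the 9 was 1.27, beside 0.31 for all genes tested. The values above it include those of *Stfa3* (SE 1.16) and *S100a8* (SE 1.39), so this median rests in part on genes with a wide spread between mice. At 2 weeks 3 were up-regulated, *S100a8* by a log2(FC) of 4.77, *S100a9* by 4.60 and *Lcn2* by 2.96, all genes that keratinocytes also make, and *Stfa3*, of the stefin A family of closely similar genes whose reads may be shared, was down-regulated, with a log2(FC) of -2.60. At 10 weeks *S100a8* reached 838.1 FPKM in cKO replicate 3, the mouse with the highest *Csf3r* and *Cxcr2* of its group, against 7.42 to 16.5 FPKM in the other 3.

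**Figure D4:**
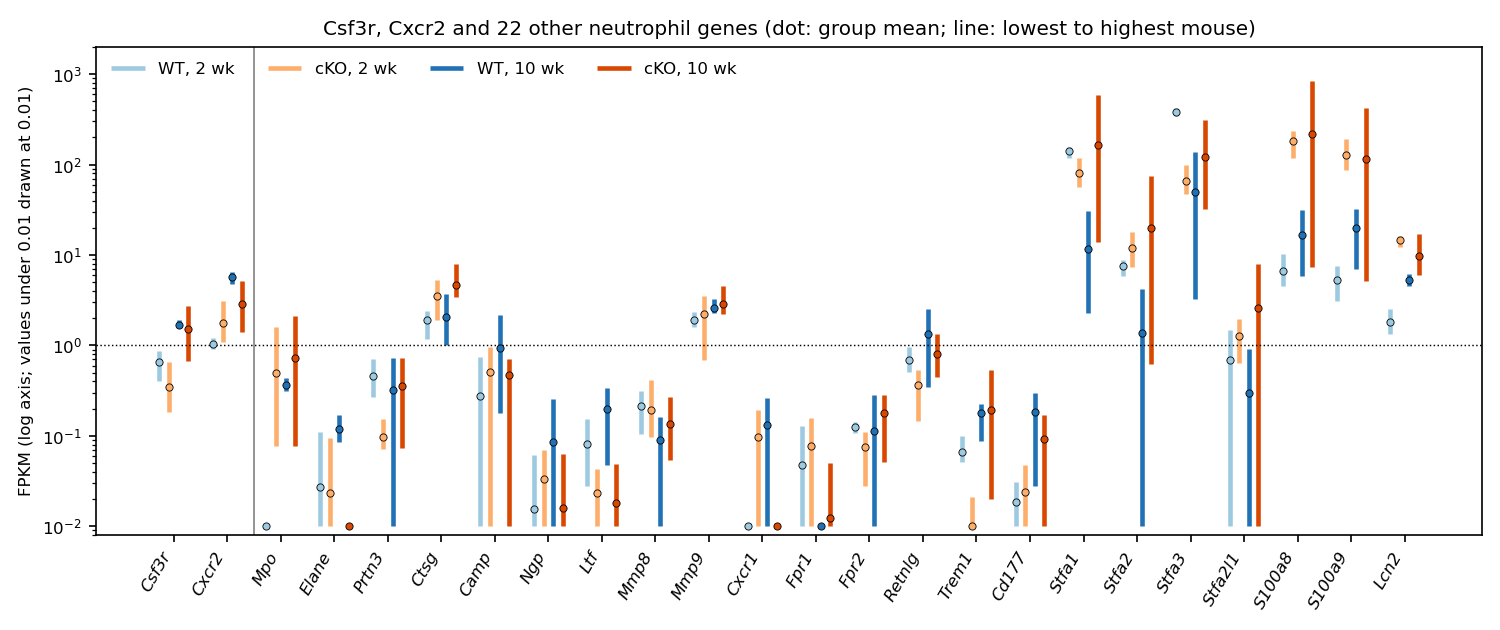
FPKM on a log axis of *Csf3r* and *Cxcr2* (left of the vertical line) and of 22 further neutrophil genes; dots are group means, lines run from the lowest to the highest mouse, and the dotted line marks 1 FPKM. Granule genes lie mostly under the dotted line in all 4 groups, while *Stfa*, *S100a8* and *S100a9* reach a highest value of 838.1.

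Ratios within a mouse do not depend on the scaling between libraries. The ratio of *Csf3r* to *Csf1r*, on the log2 scale, averaged -5.24 in the wild type and -6.22 in cKO at 2 weeks (difference -0.99) and -3.65 and -5.16 at 10 weeks (difference -1.51), with exact permutation p = 0.0571 at both ages. *Cd14* over *Cd68* was higher in cKO by 0.36 at 2 weeks (exact permutation p = 0.0286) and by 1.05 at 10 weeks (p = 0.0571), in every cKO mouse at either age. *Mrc1* over *Cd68* was higher by 0.41 at 2 weeks (exact permutation p = 0.0286) and differed by -0.06 at 10 weeks (p = 0.857). These ratios still carry the length trend within a library: with it removed, the 10-week log2(FC) was 0.40 for *Mrc1*, the longer transcript, and 1.35 for *Cd68*. After Benjamini-Hochberg adjustment over the 6 exact permutation tests the first 5 had p = 0.0686. The smallest p these 2-sided designs allow is 0.0286 for 4 mice against 4 and 0.0571 for 3 against 4. That minimum was reached by *Cd14* over *Cd68* at both ages, by *Csf3r* over *Csf1r* at 10 weeks and by *Mrc1* over *Cd68* at 2 weeks.

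The ligands of these receptors did not move together. *Csf1*, one ligand of CSF1R, had 16.3 to 18.9 FPKM in wild type mice against 3.97 to 12.9 in cKO mice at 2 weeks, and 7.60 to 12.9 against 14.1 to 17.5 at 10 weeks, without overlap at either age. Neither log2(FC) made it a DEG, at -1.04 (adjusted p = 0.0299) in the younger and 0.81 (adjusted p = 0.0173) in the older mice, but the difference between the ages of 1.85 passed the threshold (adjusted p = 0.00361), though it was 0.34 with the length and GC trend removed, where the 2-week value was -0.03. *Il34*, the ligand made by keratinocytes that maintains Langerhans cells, was down-regulated at 10 weeks, from 35.0 to 44.0 FPKM in the wild type to 17.3 to 19.99 in cKO (log2(FC) -1.02, SE 0.16, adjusted p = 0.00158). At a fold this close to the threshold the call was lost in 5 of 17 alternatives. *Csf3*, which encodes G-CSF, was too low to be tested, at 0 to 0.212 FPKM in the 11 mice of the other 3 groups and at 0.523, 0.386, 1.67 and 1.17 FPKM in cKO at 10 weeks.

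*Cxcl1* and *Cxcl2*, ligands of CXCR2, were up-regulated at 10 weeks while *Cxcr2* itself was not. *Cxcl1* was at 0.164 to 0.970 FPKM in the wild type and at 100.6, 109.5, 216.7 and 222.5 FPKM in cKO (log2(FC) 7.93, SE 0.48, adjusted p = 1.2e-05). *Cxcl2* was at 0.0690 to 0.489 and 11.6 to 28.6 FPKM (5.55, SE 0.45, adjusted p = 7.2e-05). *Cxcl5* was at 0.589 to 0.687 and 1.27 to 7.90 FPKM (2.00, SE 0.58, adjusted p = 0.0228). Of the 5 ligand genes, 4 were tested and 2 were DEGs. These 4 were under 1 FPKM in every wild type mouse at 10 weeks and passed the expression filter only through cKO mice. The count therefore supports nothing about the ligands as a set. Among 8 genes of monocyte chemokines and their receptors, 7 were tested and 2 were DEGs, beside 14.9% of all genes tested. These were *Ccl2* (3.35) and *Ccl7* (2.64), which attract monocytes through CCR2.

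Partners of *Cd14* and *Itgam* were up-regulated at 10 weeks as well. Of 9 tested genes around the lipopolysaccharide receptor 6 were up-regulated and none was down-regulated, with a median log2(FC) of 1.26. They included *Cd180* (2.53), a relative of TLR4 on phagocytes and B cells, *Tlr2* (1.84), the receptor for bacterial lipoproteins, *Irak3* (1.72), an inhibitor of the pathway, and *Tlr4* (1.46). *Tlr4* was also up-regulated at 2 weeks (1.70). Of 9 partners of beta2 integrins 5 passed the expression filter, and all 5 were up-regulated, beside 12.5% of all genes tested. They included *Icam1* (3.85) and *C3* (2.02), whose products bind the integrin, and the integrin chain genes *Itgal* (2.23) and *Itgb2* (1.59). The last encodes the chain that pairs with that of *Itgam*. *Itgal* and *Cd180* were under 1 FPKM in every wild type mouse at 10 weeks. They passed the filter only through cKO mice, so their calls support nothing about their lists. With the length and GC trend removed 4 of the integrin partners and 4 of the lipopolysaccharide receptor genes were DEGs. Over all alternatives the counts ran from 3 to 5 and from 2, without the expression filter, to 6. *Icam1*, *C3*, *Tlr2* and *Tlr4* are also expressed by keratinocytes or endothelium.

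Of 16 other macrophage genes tested at 10 weeks 5 were up-regulated, beside 12.5% of all genes tested. Among them were *Mertk* (log2(FC) 2.14), a receptor for dying cells, and *Emr1* (1.46), a surface antigen of macrophages. *Msr1* (1.44), a scavenger receptor, and *Mpeg1* (1.33), which encodes a pore-forming protein, were others. None of the 16 was down-regulated, and their median was 0.55, beside 0.31 for all genes tested. Over the alternatives the count ran from 0, without the expression filter or without wild type replicate 3, to 5, and it was 1 (*Mertk*) with quantile normalization or with the length and GC trend removed. The complement genes *C1qa*, *C1qb* and *C1qc*, picked out after their values were seen and expressed at group means of 53.1 to 131.2 FPKM, had log2(FC) values from -0.24 to 0.10 at 10 weeks, each with an adjusted p of at least 0.541. At 2 weeks none of the other macrophage genes was up-regulated, though 2 were with the length and GC trend removed and 1 with median-of-ratios scaling. *Siglec1* (-2.12), an adhesion receptor for sialic acid, and *Cx3cr1* (-1.75), the receptor for fractalkine, were down-regulated. Both genes were under 1 FPKM in every cKO mouse of that age and passed the expression filter only through wild type mice. Their calls therefore support nothing about the list, and *Cx3cr1* lost its call in 8 of 14 alternatives.

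Of 9 genes of Fc receptor signalling tested, *Lyn* (1.15) and *Inpp5d* (1.01) were up-regulated at 10 weeks, neither with the length and GC trend removed, while *Fcer1g*, the signalling chain of the receptor encoded by *Fcgr3*, chosen after its value was seen, had a log2(FC) of 0.00 (adjusted p = 0.997). Of 13 leukocyte genes *Cd53* (1.73), *Ptprc* (1.38) and *Cybb* (1.25) were up-regulated, of which *Cd53* alone was a DEG with the trend removed, and of 8 tested myeloid transcription factors *Irf8* (1.56) was. Some markers of other cells were DEGs in the same comparison. Up-regulated at 10 weeks were 5 of 7 Langerhans and dendritic cell genes, 3 of 6 endothelial genes and 1 of 6 fibroblast genes. So were 1 of 6 keratinocyte genes, 1 of 5 adipocyte genes and 1 of 4 tested T cell genes. Of 6 skeletal muscle genes 2 were down-regulated, and no tested cartilage, B cell, mast cell or melanocyte gene was a DEG. Over all genes tested 12.5% were up-regulated and 14.9% were DEGs in either direction, so the lists with 1 DEG are near the background. Summed over the 7 Langerhans and dendritic cell genes, wild type mice had 846.3 to 1014 FPKM and cKO mice 1659 to 2586, and over the 6 endothelial genes 23.0 to 26.3 and 42.3 to 63.0. With the trend removed the endothelial count was 1 and the Langerhans and dendritic cell count 5. *Flt3* and *Zbtb46* of the latter list and *Lep*, the adipocyte gene, were under 1 FPKM in every wild type mouse at 10 weeks. They passed the expression filter only through cKO mice. At 2 weeks none of the 13 leukocyte genes and none of the 9 tested Fc receptor signalling genes was a DEG in limma, and 2 Langerhans and dendritic cell genes, 1 endothelial, 1 keratinocyte, 1 adipocyte (*Retn*, 2.98) and 3 skeletal muscle genes (*Tnnt3*, 2.05) were up-regulated. Of the fibroblast genes 3 were down-regulated (*Col1a1*, -3.06) and 1 up-regulated, of the cartilage genes 2 were down-regulated (*Col2a1*, -2.89), and of the T cell genes 2 were up-regulated and 1 down-regulated at that age. Over all genes tested 14.4% were DEGs in either direction at 2 weeks, so the lists with 1 DEG are near the background. *Mrc1*, *Cd14* and *Cd68* can be expressed by dendritic or endothelial cells too, and the part of these cells in their values was not tested.

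Across the 15 mice the 8 macrophage and shared phagocyte genes had Pearson r values from 0.09 to 0.95 with each other. *Cd68* and *Cd14* followed each other with an r of 0.95 on log2(FPKM + 0.1), *Mrc1* and *Fcgr3* with 0.92, and *Csf3r* and *Cxcr2* with 0.78. The neutrophil pair had r values from -0.36 to 0.35 with the other 8 genes. These values describe 15 mice in 4 groups, each of 1 genotype, 1 age and 1 range of sample codes, and carry no test. Of 13937 genes, those most like *Csf1r* were *Slc14a1* and *Errfi1* (r = 0.961 each), *Gcnt2* (0.959), *Skil* (0.958) and *Tiparp* (0.957). Those most like *Csf3r* were *Slfn5* (0.931), *Snhg11* (0.927), *Cd300a* (0.924), *H2-T24* (0.919) and *Tnfrsf10b* (0.916).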

How the data were processed

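Total RNA from mouse ears was made into unstranded TruSeq libraries and sequenced as single 50-base reads. Per the labels and the submitters' processing notes the authors aligned reads with TopHat2 2.1.0 to mm9 and list Cufflinks, whose role is not given in the sources used here; they deposited 1 FPKM value per gene and library. No read counts were used, so the count test of the study was replaced by limma 3.58.1 (R 4.3.3, lmFit and eBayes with trend) on log2(FPKM + 0.1), on genes that reached an FPKM of 1 in 3 or more of the mice compared, 2-sided, with Benjamini-Hochberg adjustment over all genes tested. The thresholds of the study were kept: adjusted p below 0.01 and a log2(FC) of at least 1 in size. The difference between ages and the age comparisons came from 1 fit of all 4 groups, the former without the fold threshold. Ratios within mice were compared by exact permutation tests (scipy 1.17.1).

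Transcript length, GC content and repeated words came from GENCODE vM1 on mm9, which held 97.3% of the genes, and promoters from RefSeq. Depth was estimated from the steps of FPKM times length, and whole reads were not recovered. Length and GC were corrected per library as an alternative. Other alternatives were the pseudocount, the filter, the scaling, the replicate block, a constant prior variance, 1 fit for all groups and leaving out each mouse. Samples were grouped by their labels, which number mice within groups; further wild type mice of the study were not analysed here. Scripts were tested on simulated data.

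The 10 genes, the gene lists and the tests were chosen with earlier results of these data known. From the lists, up to 4 genes per comparison are named by the largest change among DEGs, or the 2 of highest mean level where none was a DEG; the cited ligands and *Socs3* are named in any case, and genes named outside this rule are marked. A gene of these lists is not reported here.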

Additional observations from a re-analysis of the deposited data

Results flagged for a closer look

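The difference in log2(FC) between 10 and 2 weeks passed the test for 3 of the 10 genes, *Itgam* (2.46), *Cd14* (1.59) and *Csf1r* (1.04), and also for *Csf1* (1.85), *Cxcl1* (5.75), *Cxcl2* (3.62), *Cxcl5* (3.05) and *Socs3* (4.60), each by limma with an adjusted p below 0.01. *Cxcl1* passed the expression filter only through cKO mice, and *Cxcl2* and *Cxcl5* only with the cKO mice of 10 weeks, where they were highest. These 3 calls therefore support nothing about the ligands as a set. The 3 of 10 stand beside 25.6% of all genes tested, which is near that share. *Cd14* lost the call under median-of-ratios scaling and quantile normalization. With the length and GC trend removed *Csf1r* (-0.56) and *Csf1* (0.34) did not pass.

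A single mouse stood apart from the other 3 of its group in 7 of 57 groups of 4 examined, by Dixon's test at the 95% level, where about 1 in 20 is expected by chance. In cKO replicate 4 at 10 weeks this held for *Mrc1* (48.7 FPKM), *Lyz2* (849.2 FPKM), *Fcgr3* (67.6 FPKM) and *Lyz1* (180.9 FPKM), all of them the highest value of the group. The length trend of that library was -0.40, against 0.32 to 0.39 in the other 3 mice of the group, and its part in these values was not tested. At 2 weeks *Cd163* stood apart in cKO replicate 2 (19.0 FPKM), *Csf3* in the same mouse (0.0521 FPKM, the others being listed at 0), and *Socs3* in wild type replicate 1 (9.71 FPKM), where the range of the group is narrow.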

How the results depend on the processing

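Of the counts of DEGs among the 10 genes, that at 10 weeks (5) was 3 without the expression filter, 3 with median-of-ratios scaling, 3 with the length and GC trend removed and 9 at an adjusted p below 0.05 with no fold threshold. At 2 weeks (0) it was 1 with a pseudocount of 1, 1 with all 4 groups in one fit, 1 with the length and GC trend removed, 2 with quantile normalization and 6 at an adjusted p below 0.05. For the difference between ages (3) it was 6 at an adjusted p below 0.05. In the wild type between ages (2) it was 1 with a pseudocount of 1 and 5 at an adjusted p below 0.05, and in cKO (3) it was 1 and 5. Leaving out each mouse gave 3 to 6 DEGs at 10 weeks, the lowest without wild type replicate 3 (*Cd68* and *Mrc1* lost), 0 to 1 at 2 weeks, 3 to 5 for the difference between ages, the highest without cKO replicate 1 of 2 weeks, 2 to 2 in the wild type between ages and 1 to 3 in cKO. The difference between ages of *Csf1r* reversed, to -0.56, with the length and GC trend removed. Among single genes 969 alternative values kept the call or the lack of one, 33 gained a call, 49 lost one and 1 call reversed. Values without a call could change sign and still count among the 969, such as *Cd163* at 2 weeks, from 0.19 to -0.07.

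The ratio of *Csf3r* to *Csf1r* at 2 weeks was -0.48 with a pseudocount of 1 (exact permutation p = 0.0286), and that of *Cd14* to *Cd68* was 0.24 (exact permutation p = 0.0857). Leaving out each mouse gave -1.17 to -0.86 and -1.85 to -1.21 for *Csf3r* to *Csf1r* at 2 and 10 weeks, 0.27 to 0.42 and 0.85 to 1.25 for *Cd14* to *Cd68*, and 0.34 to 0.48 and -0.23 to 0.12 for *Mrc1* to *Cd68*.

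The groups share replicate numbers, but same-numbered mice did not deviate together (r from -0.04 to 0.14 at 2 weeks and -0.21 to 0.07 at 10 weeks, with 1 of 4 and 0 of 3 wild type mice correlating best with their own number), so the numbers are names. With the replicate number as a block the counts were 0 at 2 weeks, 6 at 10 weeks, 3 for the difference between ages, 3 in the wild type and 1 in cKO, and the ratios at 2 weeks of *Cd14* to *Cd68* (0.36) and *Mrc1* to *Cd68* (0.41) had an exact permutation p = 0.125.

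The groups hold 3 to 4 mice, and *Csf3r* rests on 11 to 155 estimated reads per mouse. The smallest change detectable at this depth was not estimated. The causes of the changes named here were not tested, except that leaving out mice or genes changes what is tested.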
